A study of Mus musculus with 26 samples.

Results

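The Rtl1 antisense miRNAs are a group of hairpins encoded opposite the protein-coding sequence of Rtl1, in an imprinted domain on mouse chromosome 12. The group was defined by name as mmu-mir-431, mmu-mir-433, mmu-mir-127, mmu-mir-434, mmu-mir-432 and mmu-mir-136 (below without the mouse prefix), and its members were looked up among the miRNA entries of the deposited small RNA count table. Of these 6 names, 5 had a row among the 1054 miRNA entries. mir-432 had no row and was not analysed here.

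Small RNAs were sequenced in 26 libraries of male C57BL/6J mice aged 2 to 3 months, from the ventral hippocampus (vHC) and the dorsal hippocampus (dHC), each taken from both hemispheres. Control mice stayed in their homecage, and stressed mice swam for 6 min in water at 18 °C, with tissue collected 45 min after the swim began. There were 8 control and 6 swim libraries of the vHC, and 6 control and 6 swim libraries of the dHC, all from mice housed alone before the experiment. The libraries fell into 3 labelled blocks, each holding every group: block 1 had 10 libraries, and blocks 2 and 3 had 8 each. All 12 dHC libraries carry the number that follows that of a vHC library of the same condition and block, but the labels do not say whether such neighbours came from the same mouse. Regions were therefore compared as separate libraries, and the p-values measure the spread between libraries taken as independent.

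miRNAs are short RNAs cut from hairpin transcripts that guide Argonaute proteins to complementary messenger RNAs. Within the imprinted Dlk1-Dio3 domain, the maternal chromosome transcribes non-coding RNAs, among them the antisense transcript from which these hairpins are processed, and the paternal chromosome transcribes Dlk1, Rtl1 and Dio3. Rtl1 is a protein gene derived from a retrotransposon, and because the antisense miRNAs pair perfectly with its messenger RNA they are known to direct its cleavage. Both the Rtl1 antisense group and the larger mir-379 to mir-410 cluster of the same domain are known for their expression in brain. Parental origin and Rtl1 messenger RNA were not measured in these libraries.

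All 6 hairpins lie on the plus strand of chromosome 12 (GRCm38) inside the coding exon of Rtl1 (ENSMUSG00000085925.3, chr12:109589193-109600330, minus strand), whose coding sequence is 5232 bases long. From the 3' end of the Rtl1 coding sequence to its 5' end, they are Mir431 (chr12:109590447-109590537), Mir433 (chr12:109591715-109591838), Mir127 (chr12:109592846-109592915), Mir434 (chr12:109594506-109594599), Mir432 (chr12:109594956-109595030) and Mir136 (chr12:109595327-109595388). From the first to the last they span 4942 bases, and the gaps between neighbours range from 296 to 1590 bases. The Mir136 hairpin ends 15 bases from the first base of the Rtl1 start codon. Another annotated hairpin, Mir3071, overlaps Mir136 on the strand of Rtl1, and it had 1 count in 1 of 26 libraries, against 1117 to 27421 counts per library for mir-136.

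**Figure D1:**
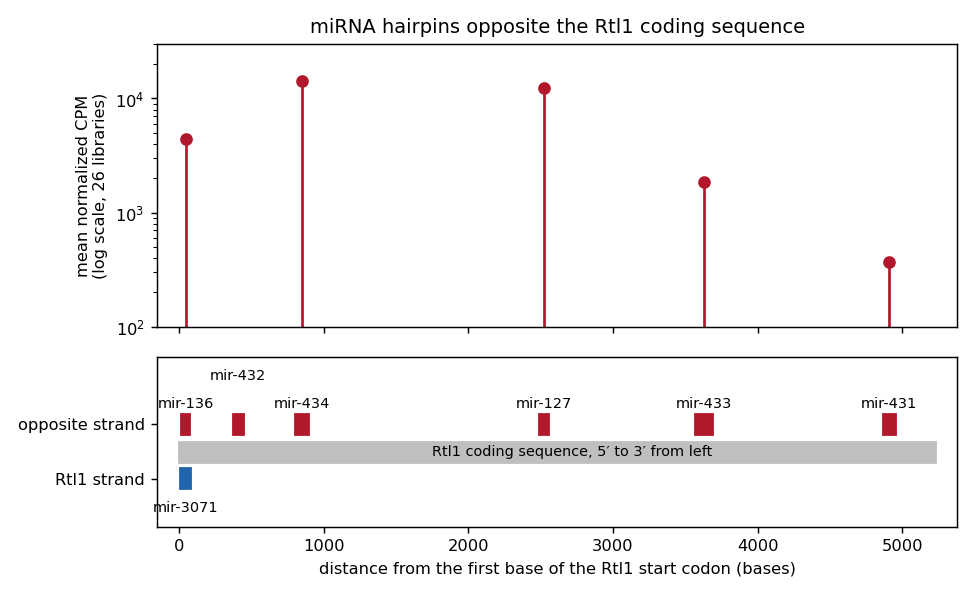
The lower panel maps the hairpins along the Rtl1 coding sequence, with distance in bases from the first base of the start codon on the x axis, hairpins of the opposite strand in red and mir-3071 of the Rtl1 strand in blue. The upper panel gives each member's mean normalized CPM over 26 libraries on a log axis, from 369 for mir-431, the farthest from the start codon, to 14239 for mir-434, and mir-432 has no point because it had no row in the table.

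The mature miRNAs of the 5 measured hairpins, and that of mir-432, are printed because the count table gives 1 value per hairpin and does not say which arm was read. They are RefSeq sequences (GRCm38.p6), written 5′ to 3′ in lower case with the seed, bases 2 to 8, in capitals.
mmu-miR-431-5p: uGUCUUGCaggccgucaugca
mmu-miR-431-3p: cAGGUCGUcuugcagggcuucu
mmu-miR-433-5p: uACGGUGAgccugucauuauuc
mmu-miR-433-3p: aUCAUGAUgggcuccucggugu
mmu-miR-127-5p: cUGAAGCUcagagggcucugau
mmu-miR-127-3p: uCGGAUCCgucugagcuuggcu
mmu-miR-434-5p: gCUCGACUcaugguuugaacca
mmu-miR-434-3p: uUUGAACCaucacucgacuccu
mmu-miR-432: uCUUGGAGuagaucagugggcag
mmu-miR-136-5p: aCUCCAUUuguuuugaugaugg
mmu-miR-136-3p: aUCAUCGUcucaaaugagucuu
Each seed occurred in this set once, and 0 other mature mouse miRNAs of the RefSeq table shared any of them, so the members do not form a seed family. Each of the 11 mature sequences had a perfect complement in the Rtl1 transcript, at 1 place. As an example, the Rtl1 stretch that pairs with mmu-miR-127-3p is shown with the bases facing the seed in capitals.
Rtl1 site of mmu-miR-127-3p: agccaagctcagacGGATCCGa

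The 2 arms of a hairpin also shared letters with each other. The longest shared run, in capitals, was 10 bases in mir-431 and 9 bases in mir-434, against 5, 5 and 4 bases in mir-433, mir-127 and mir-136.
mmu-miR-431-5p: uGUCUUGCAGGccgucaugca
mmu-miR-431-3p: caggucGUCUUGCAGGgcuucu
mmu-miR-434-5p: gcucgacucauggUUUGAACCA
mmu-miR-434-3p: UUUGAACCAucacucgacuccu

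All 5 measured members were detected in 26 of 26 libraries and were among the 463 entries that passed the filter on low counts. Library depth ranged from 465387 to 4819724 miRNA counts, and control dHC library 24 was the shallowest. Its mir-431 count, 104, was the lowest of any member in any library. Levels below are normalized CPM, counts scaled by TMM to a common miRNA total (CPM), so they are shares of the miRNA pool and not amounts per cell, and fewer cells of a type cannot be told apart from less RNA per cell. Mature miRNAs are of nearly the same length, so levels were not divided by length, and reads that fit several entries can be split between them.

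The members differed widely in level although they lie on 1 strand within a few kilobases. mir-434 was the most abundant, at a mean of 14239 CPM, 1.42% of miRNA counts, which ranked it 18 of 463 entries. mir-127 followed at 12358 CPM (1.24%, rank 25), then mir-136 at 4398 CPM (0.442%, rank 67). mir-433 stood at 1836 CPM (0.183%, rank 98) and mir-431 at 369 CPM (0.0369%, rank 181). The order of mir-434 and mir-127 was not fixed: the count ratio of mir-434 to mir-127 ran from 0.862 to 1.79 over the 26 libraries. Ligation and amplification can favour some small RNAs over others, so the order of members is an order of reads.

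Together the 5 members made up 3.69 ± 0.398% of miRNA counts in the vHC (SD, n = 14) and 2.89 ± 0.392% in the dHC (n = 12). Their share was 3.65 ± 0.407% in control vHC, 3.74 ± 0.417% in swim vHC, 2.88 ± 0.335% in control dHC and 2.89 ± 0.475% in swim dHC. Within a block the regions did not overlap: vHC shares were 3.14 to 3.44% against 2.29 to 2.65% for dHC in block 1, 3.99 to 4.27% against 2.59 to 3.42% in block 2, and 3.52 to 4.05% against 2.89 to 3.43% in block 3.

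**Figure D2:**
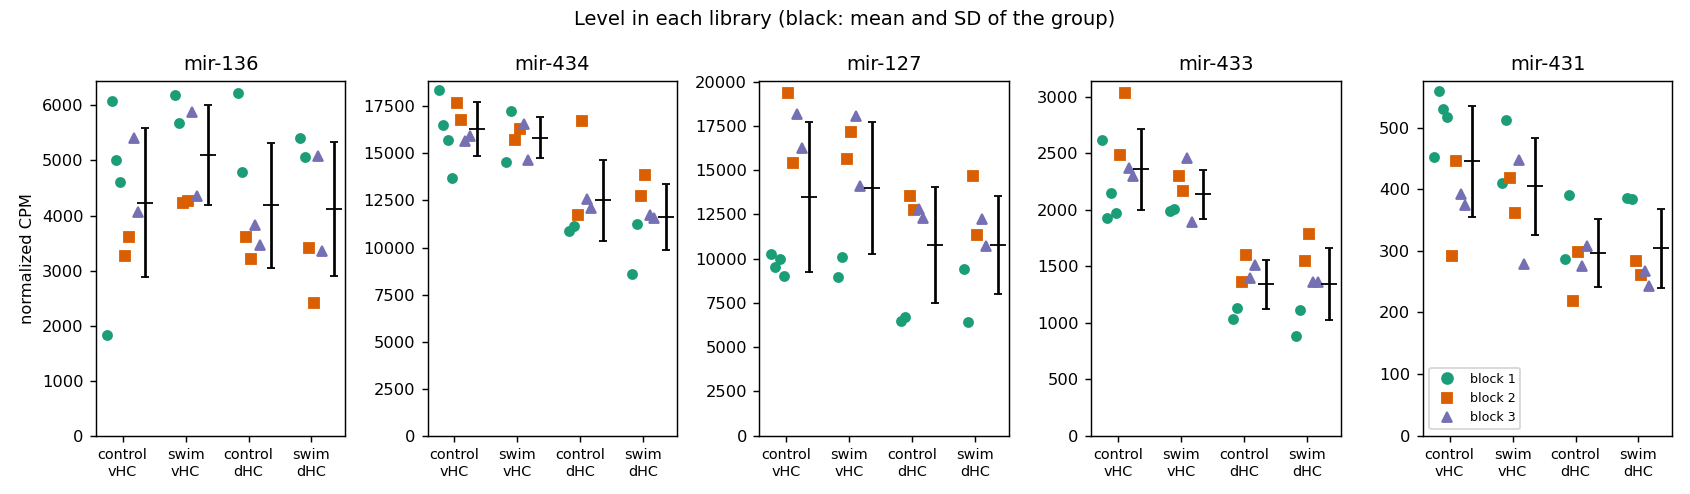
Normalized CPM of each member (y axis, linear from 0) in each library of the 4 groups, with the block shown by marker and colour and the group mean and SD in black. mir-433 shows 2 separate levels, 884 to 1787 CPM in dHC and 1889 to 3031 CPM in vHC, and the block 1 points of mir-127 lie below all others.

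The first comparison asked whether levels of these miRNAs had moved 45 min after the swim. None of the 5 members passed the test. Stress and its interaction with region, tested together, called 0 of 5 members and 0% of the 463 entries (edgeR quasi-likelihood test, Benjamini-Hochberg adjusted p, threshold 0.05). Adjusted p-values of the members ran from 0.85 to 0.933, and 0 members had an unadjusted p under 0.05, against 16 of 463 entries. Likewise 0 of 5 were called in the vHC alone, the dHC alone or the interaction. Before adjustment, p was under 0.05 for 34, 17 and 23 of all entries and for 0 members. DESeq2 also called 0 of 5 in each of these tests.

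The widths of the intervals give what change the libraries could have hidden. mir-434 was measured most tightly. Its level in the vHC ran from 13710 through a median of 16220 to 18358 CPM in control and from 14525 through 16011 to 17239 CPM after swim, and in the dHC from 10887 through 11900 to 16720 CPM in control and from 8587 through 11629 to 13866 CPM after swim. The groups overlapped in both regions, and the log2 difference of swim to control was -0.0047 (95% CI -0.15 to 0.14) in the vHC and -0.09 (-0.24 to 0.07) in the dHC. For mir-127 it was 0.06 (-0.13 to 0.25) and -0.02 (-0.23 to 0.18), and for mir-433 -0.10 (-0.27 to 0.07) and -0.0042 (-0.19 to 0.18). The intervals were wider for the scarcer mir-431, at -0.11 (-0.35 to 0.14) and 0.07 (-0.20 to 0.33).

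mir-136 had the widest intervals, and its groups overlapped too. Its level ran from 1823 through 4334 to 6087 CPM in control vHC and from 4227 through 5022 to 6196 CPM in swim vHC, a log2 difference of 0.25 (95% CI -0.10 to 0.59). In the dHC it ran from 3204 through 3716 to 6223 CPM in control and from 2418 through 4234 to 5407 CPM after swim, a log2 difference of -0.02 (-0.39 to 0.35). The low value of 1823 CPM came from control vHC library 1. The interaction, dHC difference minus vHC difference, was -0.27 (-0.77 to 0.24) for mir-136 and between -0.08 and 0.18 for the other members.

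**Figure D3:**
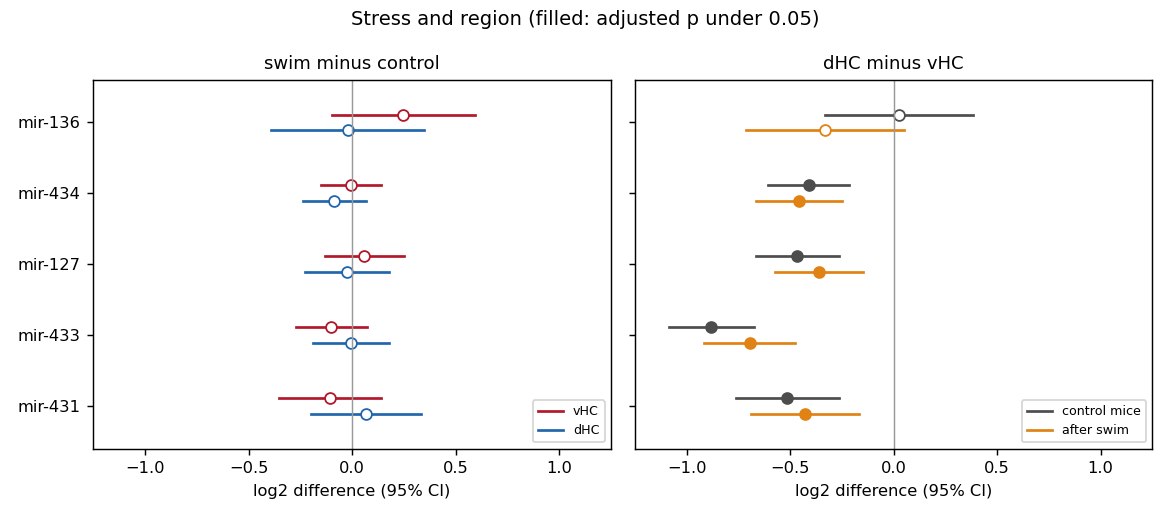
Log2 differences of each member with 95% CI on the x axis, swim minus control in each region on the left and dHC minus vHC in each condition on the right, with filled points where the adjusted p was under 0.05. All 10 stress intervals cross 0, while those of mir-434, mir-127, mir-433 and mir-431 lie below 0 for region in both conditions.

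Dorsal and ventral hippocampus differ in circuitry, and region gave the clearest difference between the labelled groups. mir-433, mir-431, mir-127 and mir-434 were lower in dHC than in vHC, in control mice and after swim, and mir-136 did not pass the test in either. In control mice 4 of 5 members were called, all lower, where the same test called 22.5% of the 463 entries in either direction, 14.7% lower in dHC and 7.78% higher. After swim 4 of 5 were again called lower, against 20.3% of entries in either direction, 12.7% lower and 7.56% higher. The 2 sets of calls come from different libraries but share 1 fit and its estimates of block and spread. The median log2 difference of the 5 members was -0.46 in control mice and -0.43 after swim, beside 0.0055 and -0.00015 over all entries. The lower calls among all entries in control mice depended on scaling: 68 lower and 36 higher with TMM became 64 lower and 66 higher with DESeq2 size factors, and 64 lower and 63 higher with TMMwsp, while the members gave 4 lower and 0 higher under each.

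mir-433 had the largest log2 difference of the 5. In control mice its level ran from 1929 through a median of 2333 to 3031 CPM in the vHC and from 1028 through 1375 to 1603 CPM in the dHC. After swim it ran from 1889 through 2088 to 2459 CPM in the vHC and from 884 through 1364 to 1787 CPM in the dHC. Every dHC library was below every vHC library, within and across conditions. The log2 difference of dHC to vHC was -0.88 (SE 0.10, adjusted p = 1.97e-07) in control mice and -0.69 (SE 0.11, adjusted p = 2.65e-05) after swim. Within blocks it was -0.996, -0.89 and -0.68 in control mice and -1.01, -0.42 and -0.66 after swim for blocks 1, 2 and 3.

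mir-434, the most abundant member, had lower levels in all 6 swim dHC libraries (8587 to 13866 CPM) than in all 6 swim vHC libraries (14525 to 17239 CPM). In control mice the ranges met through library 24 alone, at 16720 CPM: the next dHC library was at 12571 CPM and the lowest vHC library at 13710 CPM. That value came from 5830 counts of 465387, scaled with the lowest TMM factor of all libraries, 0.749. The meeting of the ranges thus depended on the scaling. The log2 difference was -0.41 (SE 0.10, adjusted p = 0.00199) in control mice and -0.46 (SE 0.10, adjusted p = 0.00174) after swim. Without library 24 both calls remained. The dHC mean was lower in 3 of 3 blocks in both conditions.

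mir-127 gave a log2 difference of -0.46 (SE 0.10, adjusted p = 0.000677) in control mice and -0.36 (SE 0.10, adjusted p = 0.0121) after swim. Its ranges overlapped broadly across blocks, from 9033 through 12817 to 19385 CPM in control vHC against 6482 through 12522 to 13560 CPM in control dHC. Within each block, every control dHC library lay below every control vHC library. After swim the vHC ran from 8939 through 14861 to 18056 CPM and the dHC from 6408 through 11008 to 14651 CPM, separate in 2 of 3 blocks.

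mir-431, the scarcest member, ran from 291 through 449 to 558 CPM in control vHC and from 219 through 293 to 390 CPM in control dHC, a log2 difference of -0.51 (SE 0.12, adjusted p = 0.00213). After swim it ran from 279 through 413 to 513 CPM in the vHC and from 242 through 275 to 386 CPM in the dHC, a difference of -0.43 (SE 0.13, adjusted p = 0.0157). The ranges overlapped in both conditions, and the dHC mean was lower in 3 of 3 blocks in each. The swim call rested on swim vHC library 27, without which the difference was -0.38 with an adjusted p of 0.0564.

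mir-136, next to the Rtl1 start codon, had log2 differences of 0.03 (95% CI -0.33 to 0.39, adjusted p = 0.935) in control mice and -0.33 (-0.71 to 0.05, adjusted p = 0.226) after swim. In control mice its block values disagreed in sign, at 0.45, -0.01 and -0.36. The outcome for this member rested on control vHC library 1: without it the value in control mice was -0.08 and that after swim -0.33 with an adjusted p of 0.0393. The interval in control mice leaves out -0.41, the value of mir-434, while the interval after swim holds the mir-434 value of -0.46. This is not a test of a difference between the 2 members. The region difference of their count ratio did not pass in control mice (exact permutation adjusted p = 0.246) or after swim (0.815).

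The region calls depended on the covariate. Block was used because 1 of the 2 surrogate variables that the study's model calls for follows region: region accounted for 91.1% of its variance. With the 2 surrogate variables in place of block, only mir-127 was called in either condition, at -1.08 in control mice and -1.16 after swim. mir-433 was then at -0.47 (adjusted p = 0.189) and -0.37 (0.323), and the sign turned for mir-431 (0.15 and 0.33) and mir-434 (0.26 and 0.18). With neither covariate 3 of 5 members were called in control mice and 2 of 5 after swim, since mir-127 (adjusted p = 0.406 and 0.365) and, after swim, mir-431 (0.129) were lost. With surrogate variables from an intercept alone mir-127 was lost in both conditions (0.118 and 0.0585).

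The region difference was not equal among members. Ratios of the raw counts of 2 members in the same library do not depend on scaling, and their mean log2 difference between regions over the 3 blocks was tested by exchanging region labels within block (two-sided exact permutation test, Benjamini-Hochberg over 20 tests, chosen after the values were seen). The count ratio of mir-434 to mir-433 ran from 5.54 through 7.07 to 8.58 in the vHC and from 7.76 through 8.83 to 10.6 in the dHC. On the log2 scale, mir-433 per mir-434 was lower in dHC by 0.46 in control mice (p = 0.00185, adjusted p = 0.0185) and by 0.24 after swim (p = 0.00926, adjusted p = 0.037), each the smallest p the permutations could give. It had the same sign in 3 of 3 blocks in both conditions.

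In control mice mir-433 was also lower in dHC relative to mir-127 (log2 -0.39, exact permutation adjusted p = 0.0185), mir-136 (-0.88, adjusted p = 0.037) and mir-431, where the log2 ratio of mir-431 to mir-433 was 0.36 higher (adjusted p = 0.037). After swim these 3 ratios had the same signs, at -0.33, -0.35 and 0.29, and did not pass (exact permutation adjusted p = 0.241 for each). No ratio among mir-431, mir-127 and mir-434 passed in either condition, with differences between -0.10 and 0.09 and adjusted p-values from 0.815 to 0.852 (exact permutation). Relative to mir-136 the control differences of these members were larger, -0.52 for mir-431, -0.49 for mir-127 and -0.42 for mir-434, with adjusted p-values of 0.143, 0.142 and 0.246 (exact permutation).

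Markers of the sampled cell types were compared alongside, where the region tests called 22.5% of all entries in control mice and 20.3% after swim. Several entries are hairpins of the same miRNA, such as those of mir-124, mir-128 and mir-219a, so the counts are of hairpins and not of separate miRNAs. Neuron miRNAs (mir-124 and mir-128 hairpins) were abundant in all libraries, at a summed 77637 to 99158 CPM, and 0 of 5 were called between regions. All 3 oligodendrocyte entries, the mir-219a hairpins and mir-338, were higher in dHC in both conditions: their sum was 3371 to 5014 CPM in control vHC and 4611 to 7385 CPM in control dHC. Of 6 entries of choroid plexus and ciliated cells, 3 were higher and 3 lower in control dHC. Of 4 muscle entries tested, 2 were higher in dHC in both conditions, and of 4 erythroid entries 2 were lower in control dHC and 1 after swim. Microglia and immune entries (0 of 5), endothelial and mural entries (0 of 3) and the liver entry (0 of 1) were not called, and no marker in the table was at 0 in all libraries. The part of cell composition in the members' region difference was not tested.

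Block, unlike the swim, was called for most members. The 3 blocks tested together called 4 of 5 members, all but mir-434 (adjusted p = 0.0893), and 53.1% of the 463 entries. With DESeq2, or with its size factors in edgeR, mir-434 was called too and the count was 5 of 5. The labels give the block but do not say what it stands for. The study's methods state that libraries were prepared in 3 batches that each mixed regions and groups.

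The members moved in opposite directions between blocks. mir-127 was 0.84 higher on the log2 scale in block 2 than in block 1 (SE 0.09, adjusted p = 1.67e-08) and 0.77 higher in block 3 (SE 0.09, adjusted p = 8.79e-08). Its level was 6408 to 10246 CPM in the 10 libraries of block 1 and 10689 to 19385 CPM in the 16 libraries of blocks 2 and 3, without overlap. mir-433 was also higher, by 0.41 (SE 0.09) in block 2 and 0.26 (SE 0.09) in block 3. In contrast mir-431 was lower, at -0.41 (SE 0.11) in block 2 and -0.40 (SE 0.11) in block 3, and mir-136 was lower in block 2, at -0.56 (SE 0.15), where block 3 gave -0.22 and did not pass. mir-434 had the smallest differences, 0.21 (adjusted p = 0.0373) in block 2 and 0.07 (adjusted p = 0.503) in block 3.

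Block 2 against block 1 called 5 of 5 members, 3 higher and 2 lower, where 52.5% of entries were called, 22.7% higher and 29.8% lower. Block 3 against block 1 called 3 of 5 members, 2 higher and 1 lower, where 52.1% of entries were called, 22% higher and 30% lower. Block 3 against block 2 called 0 of 5 members and 0% of entries by edgeR, although 51 entries had p below 0.05 before adjustment. Of the members, mir-136 alone had an unadjusted p under 0.05 between blocks 3 and 2, with a log2 difference of 0.35 (adjusted p = 0.422). The mir-434 call in block 2 was lost without each of 5 block 1 or block 2 libraries in turn (control dHC 14 and 24, control vHC 13, swim vHC 5 and swim dHC 6), with adjusted p-values from 0.0553 to 0.0772. Without a low-count filter neither this call (adjusted p = 0.16) nor that of mir-433 in block 3 (0.0646) passed, and both were lost with whole-table library sizes (0.0768 and 0.0692). Without control vHC library 1, mir-136 was called in block 3 too, at -0.25 (adjusted p = 0.0311). Of the marker entries, tested over the blocks together and read beside the same 53.1%, 3 of 5 of neurons, 2 of 5 of microglia and immune cells, 3 of 4 erythroid, 3 of 6 of choroid plexus and ciliated cells, 2 of 4 of muscle, 1 of 3 of oligodendrocytes, 1 of 3 endothelial and mural and 0 of 1 of liver were called. The 3 neuron entries called were the mir-124 hairpins, whose test values were nearly equal, so they are not separate calls. The mir-128 hairpins were not called. Entries of other cell types can also be hairpins of the same miRNA, so these counts are of hairpins and not of separate miRNAs. The mir-124 hairpins and the 2 microglia and immune entries were lower in blocks 2 and 3 than in block 1. The part of these entries in the members' values was not tested.

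The ratio of mir-127 to mir-431 shows the shift without any scaling. A library of block 1 held 16.7 to 24.4 mir-127 counts per mir-431 count, with a median of 19.3, and a library of blocks 2 and 3 held 34.5 to 66.6, with a median of 44.9. The ratio did not overlap between these blocks in either region. Its 2 members moved in opposite directions between blocks, and the ratio of every other member pair did overlap. For example, the ratio of mir-434 to mir-433 was 6.95 to 10.6 in block 1 and 5.54 to 10.4 in blocks 2 and 3. The block 2 difference of mir-127, 0.84, was larger in size than its region difference of -0.46 in control mice, and the region values above were therefore taken with block in the fit or within a block.

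**Figure D4:**
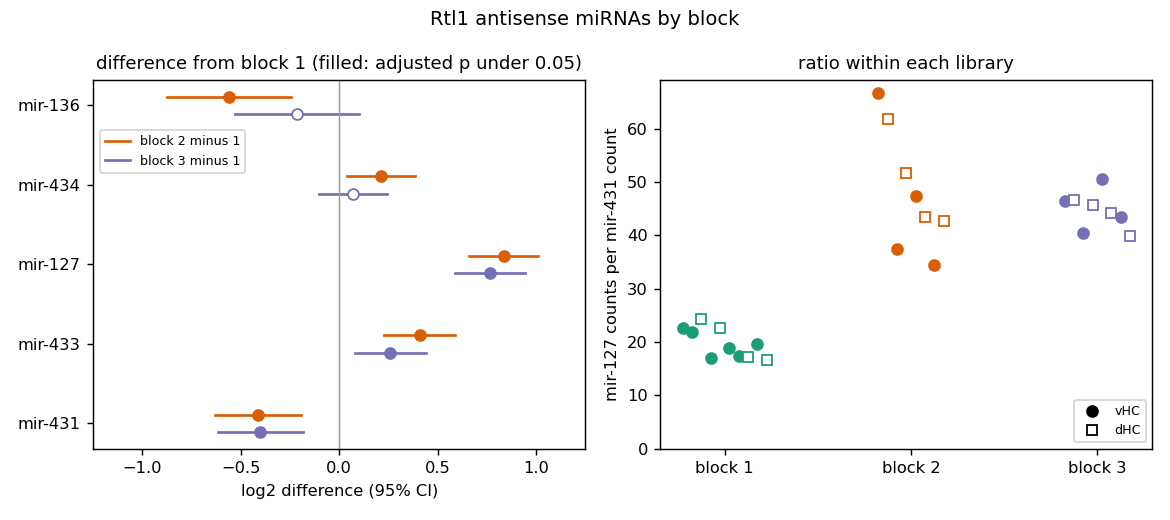
Left, log2 differences of blocks 2 and 3 from block 1 with 95% CI, filled where the adjusted p was under 0.05: mir-127 and mir-433 lie above 0 and mir-431 below 0. Right, mir-127 counts per mir-431 count in each library by block (filled circles vHC, open squares dHC, linear axis from 0), with block 1 at 16.7 to 24.4 and blocks 2 and 3 at 34.5 to 66.6.

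The members did not vary as 1 unit from library to library. Over their 10 pairs the median Pearson r of log2 CPM was -0.03 in the 14 vHC libraries and -0.50 in the 12 dHC libraries, beside 0.0036 and 0.03 over all 106953 pairs of tested entries. With the blocks pooled, r passed after adjustment in 1 of the 10 pairs in the vHC and 4 in the dHC (permutation test). After group and block means were subtracted the member medians were 0.14 and 0.01, beside 0.0070 and 0.05. These correlations are across libraries of unequal depth, with levels relative to each library's miRNA pool, so a rise of one entry lowers the share of the rest.

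mir-433 and mir-434 had positive correlations, which passed after adjustment only in the dHC with the blocks pooled. In the vHC their r was 0.59 (permutation p = 0.0272, adjusted p = 0.0679) and rho 0.63 (permutation p = 0.0176, adjusted p = 0.0585), over 20 tests in the family, and r was 0.58 without the 2 libraries farthest from the median. Within blocks it was 0.63 in block 1 (n = 6, exact permutation p = 0.185) and 0.71 in blocks 2 and 3 (n = 8, exact permutation p = 0.0501). Without the 2 farthest libraries these became -0.0023 and 0.54, so the block 1 value rested on those libraries. Over the 12 dHC libraries r was 0.85 (permutation p = 0.00037, adjusted p = 0.0037) and rho 0.96 (permutation p = 2e-05, adjusted p = 0.0004). There the mir-433 levels of block 1 lay apart from those of blocks 2 and 3, so r was also taken within blocks 2 and 3 alone. Within these it was 0.69 (n = 8, exact permutation p = 0.0526, adjusted p = 0.27 over 30 tests) and rho was 0.88 (exact permutation p = 0.00724, adjusted p = 0.217). With the 2 farthest libraries left out r was 0.69. After group and block means were subtracted r was 0.65 in the vHC and 0.81 in the dHC.

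mir-136 had negative correlations with mir-433 and mir-434, which passed after adjustment only in the dHC with the blocks pooled. With mir-434 its r was -0.50 in the vHC (permutation p = 0.0683, adjusted p = 0.114; rho -0.43, permutation p = 0.128, adjusted p = 0.21), and -0.31 without the 2 farthest libraries. In vHC blocks it was -0.53 in block 1 (n = 6, exact permutation p = 0.332) and -0.42 in blocks 2 and 3 (n = 8, exact permutation p = 0.303). Over the 12 dHC libraries r was -0.70 (permutation p = 0.0107, adjusted p = 0.0476) and rho -0.82 (permutation p = 0.00154, adjusted p = 0.0103). There the mir-434 levels of block 1, 8587 to 11269 CPM, also lay apart from those of blocks 2 and 3, at 11556 CPM and above. Within dHC blocks 2 and 3 alone r was -0.48 (n = 8, exact permutation p = 0.229, adjusted p = 0.622). There rho was -0.55 (exact permutation p = 0.171, adjusted p = 0.641), and r was -0.24 without the 2 farthest. With mir-433 the r of mir-136 was -0.56 in the vHC (permutation p = 0.0369, adjusted p = 0.082; rho -0.60, permutation p = 0.0263, adjusted p = 0.0585) and -0.67 without the 2 farthest. It was -0.95 in vHC block 1 (n = 6, exact permutation p = 0.05), where it was -0.10 without the 2 farthest libraries and thus rested on them, and -0.24 in vHC blocks 2 and 3 (n = 8, exact permutation p = 0.576). Over the 12 dHC libraries the r of mir-136 with mir-433 was -0.89 (permutation p = 0.00011, adjusted p = 0.0022) and rho -0.84 (permutation p = 0.00122, adjusted p = 0.0103). In dHC blocks 2 and 3 alone this r was -0.79 (n = 8, exact permutation p = 0.0157, adjusted p = 0.27), and -0.42 without the 2 farthest.

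The mir-127 levels of block 1 lay apart from those of blocks 2 and 3. With the blocks pooled, its r passed with mir-431 in the vHC (-0.65, permutation adjusted p = 0.0476) and with mir-433 in the dHC (0.71, permutation adjusted p = 0.0476). Neither rho passed (permutation adjusted p = 0.0585). With mir-434 in the dHC, rho passed (0.74, permutation adjusted p = 0.0393) and r did not (0.47, permutation adjusted p = 0.196). After group and block means were subtracted, these pairs had r of 0.04, -0.56 and -0.53. Within blocks mir-127 with mir-434 gave r = 0.88 in vHC block 1 (n = 6, exact permutation p = 0.0264, adjusted p = 0.27), 0.69 in vHC blocks 2 and 3 (n = 8, exact permutation p = 0.054, adjusted p = 0.27) and 0.09 in dHC blocks 2 and 3 (n = 8, exact permutation p = 0.82). The middle value became -0.14 without the 2 farthest libraries. No within-block pair of any members passed after adjustment over the 30 tests.

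**Figure D5:**
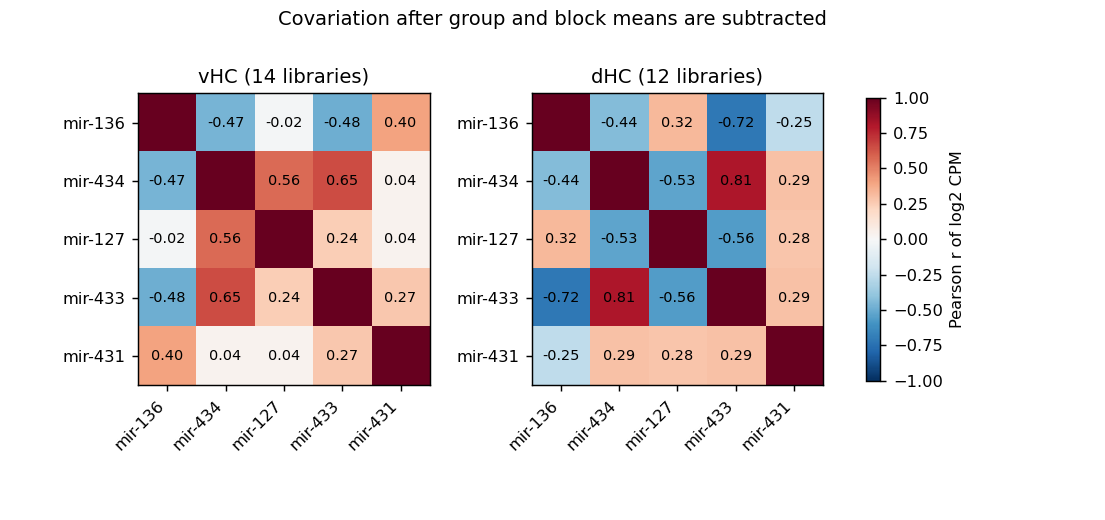
Pearson r of log2 CPM between members after group and block means were subtracted, in the 14 vHC libraries (left) and the 12 dHC libraries (right), with colour from -1 (blue) to 1 (red). mir-433 and mir-434 stand at 0.65 and 0.81, and mir-136 with mir-433 at -0.48 and -0.72.

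Among entries that are no members, the 3 most like each member were named by r over 26 libraries after group and block means were subtracted. For mir-127 they were mir-341 (0.91), which lies in the same domain, mir-7a-1 (0.83) and mir-7b (0.82). For mir-136 they were mir-381 of the mir-379 to mir-410 cluster (0.92), mir-142a (0.87), known from blood cell lineages, and mir-542 (0.87). For mir-433 they were mir-344d-2 (0.81), mir-344d-1 (0.81) and mir-485 of the mir-379 to mir-410 cluster (0.80). mir-434 was most like mir-125b-2 (0.85), mir-125b-1 (0.85) and mir-128-1 (0.78), and mir-431 most like mir-181b-1 (0.83), mir-181d (0.82) and mir-181b-2 (0.81). Hairpins that give near-identical mature sequences, such as the mir-125b and mir-181b pairs, share reads and are not separate points of likeness. Among members the highest r was 0.72, for mir-433 with mir-434. These are the highest values among all tested entries and carry no test.

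The domain's other hairpins were compared as 2 lists. The first held 14 hairpins of the same part of chromosome 12, among them mir-770, mir-493, mir-337, mir-341 and mir-370, and 10 passed the filter. In control mice 9 of these 10 were lower in dHC and 0 higher, beside 14.7% lower over all entries, with a median log2 difference of -0.57. After swim 5 were lower and 0 higher, beside 12.7% lower over all entries, with a median of -0.53. mir-1247, a hairpin near Dio3, had the largest difference of the list, -3.23 (SE 0.27, adjusted p = 4.37e-10) in control mice and -2.98 (SE 0.28, adjusted p = 2.89e-09) after swim. In control mice it was followed by mir-770 at -1.05 (SE 0.15) and mir-493 at -0.80 (SE 0.15). After swim mir-493 was at -0.74 (SE 0.16) and mir-370 at -0.64 (SE 0.13).

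The second list held the mir-379 to mir-410 cluster and mir-3544, which lies opposite mir-337 and outside that cluster. Of its 43 names 38 had a row and 36 passed the filter, mir-3544 not among them. In control mice 13 were lower in dHC and 1 higher, with a median of -0.27, and after swim 16 were lower and 1 higher, with a median of -0.39, beside the same shares of all entries. The calls with the smallest p were mir-382 (-0.65), mir-541 (-0.71) and mir-409 (-0.64) in control mice, and mir-409 (-0.55), mir-382 (-0.50) and mir-485 (-0.64) after swim. The members' medians of -0.46 and -0.43 lay between those of the 2 lists in both conditions.

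Stress called 0 of 10 and 0 of 36 of these neighbours in every stress test, and 0 and 1 of them had an unadjusted p under 0.05 when stress and interaction were tested together. Block called 3 of 10 and 18 of 36, beside 53.1% of all entries. In the first list the blocks differed in mir-665 (log2 0.97 in block 2 and 1.39 in block 3), mir-540 (0.47 and 0.49) and mir-337 (0.35 and 0.45), all higher than in block 1. In the cluster the calls went both ways, with 7 higher and 11 lower in block 2, led by mir-410 (-0.91), mir-411 (-0.88) and mir-377 (-1.16), and 5 higher and 12 lower in block 3, led by mir-381 (0.79), mir-496a (-0.56) and mir-300 (0.62).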

How the data were processed

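The authors trimmed reads with cutadapt (error rate 0.05, minimum length 18), collapsed identical reads with their molecular identifiers and quantified them with Sports 1.0; the submitters' processing notes name GRCm38. The deposited values are expected counts per small RNA entry, not normalized, and 29.5% of them were not whole numbers; they were rounded, since the design had assumed whole counts.

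The 1054 miRNA entries were analysed in R 4.3.3. Entries were filtered with filterByExpr (minimum count 10, minimum total 15), scaled by TMM and fitted with the edgeR 4.0.16 quasi-likelihood test over all 26 libraries. Stress was fitted with region, their interaction and 2 surrogate variables (sva 3.50.0 on DESeq2 1.42.0 variance-stabilized counts), and region and block with group and block as factors. P-values were adjusted by Benjamini-Hochberg over 463 entries at a threshold of 0.05. Correlations used log2 CPM (prior count 1) and two-sided permutation tests (scipy 1.17.1) of 100000 resamples, or exact ones within blocks. The scripts were tested on simulated data. Differences are on the log2 scale.

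All members were named. Of other entries, the 3 most alike to each member and, of each neighbour list and comparison, the 3 called with the smallest p were named. The members, lists, tests and the use of block were chosen with earlier results of these data known, and the correlations within blocks, the ratio tests and unrounded counts were added after seeing the values. Alternatives were other scaling, no low-count filter, DESeq2, other covariates, each block alone and each library left out. Arms could not be separated, and the precision is limited by the depth of 465387 to 4819724 miRNA counts. A base composition check was left out because too few entries could be matched to sequences. No paired analysis was made: no groups share a library number, and the labels do not tie consecutively numbered vHC and dHC libraries to 1 mouse.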

Additional observations from a re-analysis of the deposited data

Results flagged for a closer look

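The mir-434 level in control dHC library 24, 16720 CPM, stood apart from the other 5 libraries of its group, the nearest of which was at 12571 CPM (gap over range 0.711). It was the only outlying value in 24 tests of members and groups, where chance gives about 1.2. Library 24 was the shallowest library, at 465387 miRNA counts, of which 5830 were mir-434. Its TMM factor was 0.749, against 0.905 to 1.12 in the other libraries. A factor below 1 raises the normalized CPM above the plain share of counts, so this outlying value depended on the scaling. The part of depth in it was not tested.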

How the results depend on the processing

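The count of members called for stress was 0 under every alternative run. The region counts of 4 in control mice and 4 after swim held under other scaling, unrounded counts, no low-count filter and DESeq2. With 2 surrogate variables in place of block they became 1 and 1, and with neither covariate the count after swim became 2. With each library left out in turn, the counts ranged from 4 to 4 for region in control mice, 3 to 5 for region after swim, 4 to 5 for block and 0 to 0 for each stress test. With 2 surrogate variables the region difference turned for mir-431 (0.154 in control mice, 0.329 after swim), mir-434 (0.257, 0.177) and mir-136 in control mice (-0.246; -0.0153 with neither covariate, -0.0929 with surrogate variables from an intercept alone). The cause was not tested.

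Other turns were of values near 0 that no fit called. For mir-127 stress in dHC was 0.0386 with block, 0.00257 with neither covariate, 0.0268 with no filter and 0.0295 with intercept-only surrogate variables, and stress in vHC was -0.0653 with block. For mir-434 stress in vHC was 0.0221 unrounded, 0.0224 with DESeq2, 0.0225 with its size factors and 0.0438 with TMMwsp. With whole-table library sizes stress in dHC was 0.00413 for mir-136 and 0.0232 for mir-433, which was 0.0074 with neither covariate. For mir-431, block 3 minus 2 was -0.00027 with DESeq2 and -0.00174 with its size factors. Ranges with 1 library left out that crossed 0 were, for stress in dHC, -0.0909 to 0.0189 (mir-127), -0.0749 to 0.0436 (mir-136), -0.0115 to 0.117 (mir-431) and -0.0661 to 0.0528 (mir-433). The others were mir-434 stress in vHC (-0.0352 to 0.0785), mir-136 region in control mice (-0.0798 to 0.113) and mir-431 block 3 minus 2 (-0.0462 to 0.0674).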
